A study of Homo sapiens with 4 samples.

Results

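The genes described here encode histone variants, the chaperones that carry histones and place them on DNA, and the factors that make and process the mRNAs of the replication-dependent histones. The set held 37 genes chosen by name, and its members were all probe sets that the platform annotation gave exactly 1 of these gene symbols, 93 of 54675 probe sets on the array. Of the 37 genes, 36 had at least 1 such probe set and 35 were bright enough to be tested. *H3-3B* had none of its own, since the 8 probe sets that named it also named other genes. mRNA levels were measured on 4 single-colour oligonucleotide arrays of the gastric cancer line SNU638, an established human cell line. In 2 sh-ACTL6A samples ACTL6A had been knocked down by lentiviral short hairpin RNA (shRNA), and 2 scramble samples carried a scrambled shRNA. The hairpins were in the pLKO.1 vector, and infected cells were selected with puromycin. The labels do not state which ACTL6A hairpin was on which array, so the sh-ACTL6A arrays may carry different hairpins. Nothing in the labels says that replicates were grown or infected separately, and the word replicate here means the array number only. The p-values therefore speak of array-to-array spread only. That spread may be technical, and within sh-ACTL6A it may also hold differences between hairpins.

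A replication-dependent histone mRNA ends in a stem-loop in place of a poly(A) tail, and stem-loop binding protein together with the U7 ribonucleoprotein makes that end, mostly in S phase. Histone variants are encoded by separate genes whose mRNAs are for the most part polyadenylated, and they replace the canonical histones at particular places such as promoters, damaged DNA or centromeres. Chaperones shield the basic histones from synthesis to deposition, with H3-H4 and H2A-H2B handled by largely different proteins. ACTL6A encodes an actin-related subunit shared by the SWI/SNF remodelling complex and by complexes that exchange or acetylate histones.

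The knockdown was seen on both arrays. *ACTL6A* log2 signal was 10.16 and 10.32 in sh-ACTL6A, against 11.92 and 11.82 in scramble. It fell by 1.63 ± 0.14 (SE, n = 2 per group) on the log2 scale, a change of -67.7% (limma, adjusted p = 0.0408). It missed the threshold in 5 of the alternatives with all arrays, with an adjusted p between 0.052 and 0.844, and without scramble replicate 1 (limma adjusted p = 0.9996) or scramble replicate 2 (limma adjusted p = 0.567), while the direction held throughout. SNU638 carried its epithelial markers, since 6 of 7 such genes reached the detection threshold used here, a mean log2 signal of 5.63, while 0 of 4 measured leukocyte genes and 2 of 6 fibroblast and endothelial genes (*COL1A1* and *PECAM1*) did. The median log2 signal of all probe sets was 5.69 and 5.83 in sh-ACTL6A and 5.78 and 5.80 in scramble. The 3' minus 5' signal of *ACTB* on the log2 scale, a measure of RNA integrity and labelling, was 1.21 and 0.78 in sh-ACTL6A and 1.63 and 0.78 in scramble.

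Promoters are shown for the variant, the histone mRNA factor and the chaperone with the smallest unadjusted p in its role group, as these genes recur in the comparisons. Each run holds the 250 bases before the gene's start (RefSeq, GRCh38.p14), 5' to 3' on the strand of the gene, with CCAAT, a box frequent in histone gene promoters, or its reverse complement ATTGG in capitals. *H2AX* lies on the minus strand (chr11:119095466-119095715), *SLBP* on the minus strand (chr4:1712320-1712569) and *UBN1* on the plus strand (chr16:4847231-4847480, the first of 2 listed starts).
H2AX: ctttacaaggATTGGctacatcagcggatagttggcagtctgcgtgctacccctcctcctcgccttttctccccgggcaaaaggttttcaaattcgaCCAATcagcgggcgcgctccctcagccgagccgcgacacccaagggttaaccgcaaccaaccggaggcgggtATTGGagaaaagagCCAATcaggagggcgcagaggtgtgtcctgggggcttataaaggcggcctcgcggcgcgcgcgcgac
SLBP: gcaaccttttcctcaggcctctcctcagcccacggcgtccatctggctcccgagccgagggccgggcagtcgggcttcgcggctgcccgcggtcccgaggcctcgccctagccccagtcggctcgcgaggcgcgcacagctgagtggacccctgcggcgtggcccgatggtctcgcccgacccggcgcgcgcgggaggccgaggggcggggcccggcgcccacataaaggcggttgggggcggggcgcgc
UBN1: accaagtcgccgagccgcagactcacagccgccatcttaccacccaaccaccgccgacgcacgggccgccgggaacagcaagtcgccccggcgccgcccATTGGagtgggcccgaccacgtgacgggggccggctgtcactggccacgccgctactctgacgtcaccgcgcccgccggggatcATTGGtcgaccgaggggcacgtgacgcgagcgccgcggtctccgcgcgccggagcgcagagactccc
The *H2AX* sequence held 4 boxes, with first bases 240, 153, 81 and 67 bases before the start, and a GC share of 60.8%. The *UBN1* sequence held 2, at 151 and 67 bases, and a GC share of 73.2%. The *SLBP* sequence held 0 and had a GC share of 77.2%. Among the 32 of 37 genes with a RefSeq promoter, searched over the same 250 bases, 17 (53.1%) held CCAAT on either strand, against 35.5% of 10014 tested genes. TATAAA on either strand was found in 5 of the 32 (15.6%), *H2AZ1*, *H2AX*, *H3-3B*, *H1-10* and *NASP*, against 5.48%. The E2F words TTTGGCGC, TTTGCCGC, TTTCGCGC and TTTCCCGC, searched on both strands, were found in 2 (6.25%), *CASP8AP2* and *HIRA*, against 4.5%. Words of different motifs shared bases in 0 of the 32 promoters. By role, CCAAT was in 6 of 9 variant genes, 3 of 6 histone mRNA genes, 7 of 13 H3-H4 chaperone genes and 1 of 4 H2A-H2B chaperone genes. These matches describe the sequences alone.

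None of these genes passed the test between sh-ACTL6A and scramble cells, and the differences lay on both sides of 0. Each gene was represented by its brightest probe set, and differences are sh-ACTL6A minus scramble on the log2 scale. Of the 35 genes tested, 18 were above 0 and 17 below, and the median difference was 0.028, against 0.0090 over all 12286 genes tested. The share below 0 was 48.6%, beside 48.1% of all genes. With limma, 0 of 35 passed an adjusted p of 0.05, where 0.00814% of all genes did, and their adjusted p ran between 0.851 and 0.999. At an unadjusted p under 0.05 limma left 1 member, *UBN1*, where 5.5% of all genes passed. With quantile normalisation that count was 4, beside 668 of all 12287 genes tested. It was also 4 with the replicate number as a block, where more of all genes passed, 889 of 12286. The methods' t-test called 0 after adjustment and left *ATRX* as the 1 member at an unadjusted p under 0.05. Among all 12286 genes, 672 were under that unadjusted bound there. Both sh-ACTL6A arrays lay on the same side of both scramble arrays for 12 genes (34.3%), 8 higher and 4 lower, a share close to the 34.6% of all genes.

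**Figure D1:**
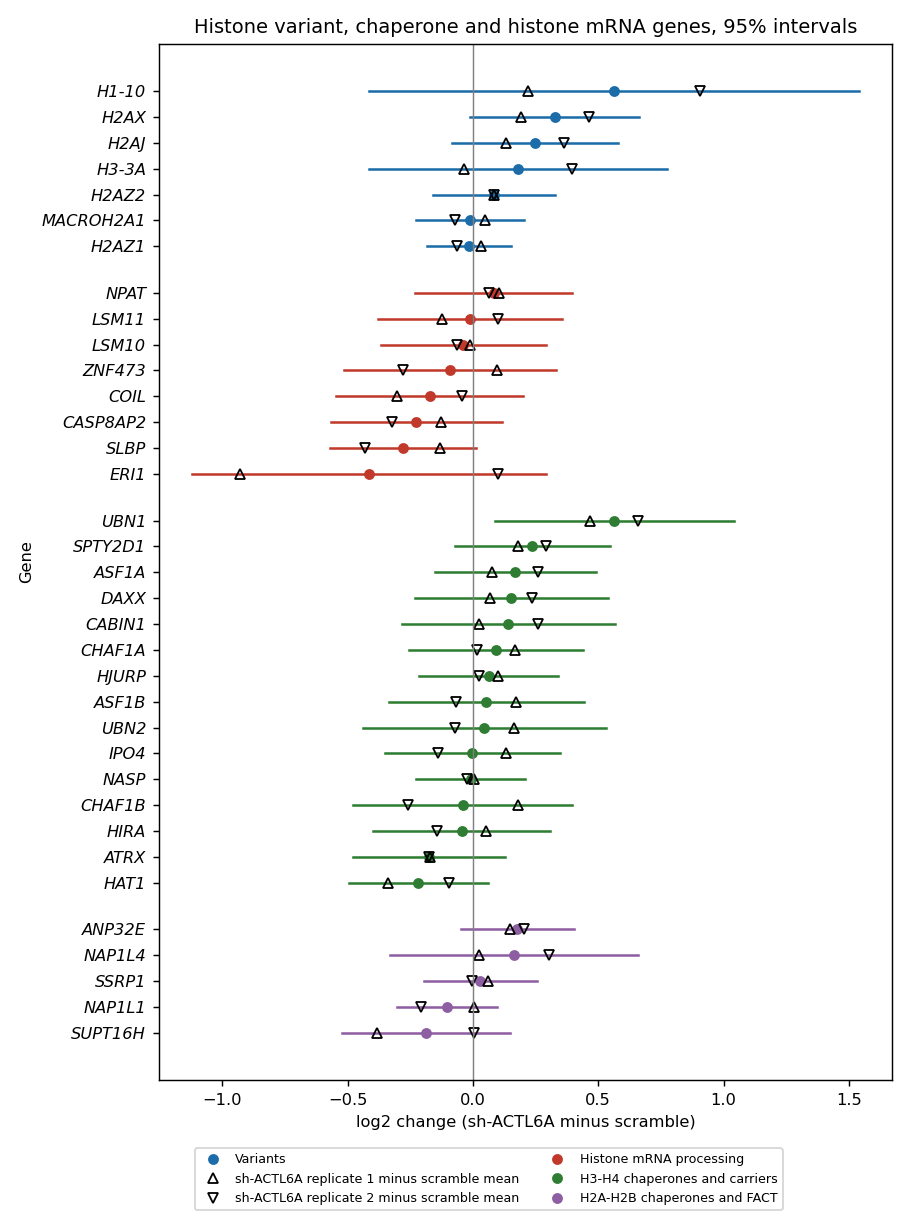
Change in mRNA level of the 35 tested genes, with the log2 change (sh-ACTL6A minus scramble) on the x axis and genes grouped by role on the y axis. Filled points are the difference of group means, lines its 95% confidence interval from limma, and open triangles the value of each sh-ACTL6A array less the mean of both scramble arrays (n = 2 arrays per group). The interval leaves out 0 for *UBN1* only, whose adjusted p was 0.851.

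For the brightest probe set of each gene, the arrays bounded many of these differences closely. The 95% confidence interval lay within 1.5-fold in either direction for 29 of 35 genes (82.9%), against 47.4% of all genes tested. It lay within 2-fold for 32 (91.4%, against 81.7%), and the 3 genes outside were *H1-10*, *ERI1* and *UBN1*. A bound of 1.25-fold held for 5 genes (14.3%, against 6.75%), *H2AZ1*, *MACROH2A1*, *NASP*, *NAP1L1* and *SSRP1*. The brightest probe sets of the 35 genes had a median mean log2 signal of 10.96, against 9.54 over all genes tested. Their median SE was 0.15 against 0.19. The bounds did not hold for every other probe set. In a limma fit of all probe sets, the 95% interval of another *ANP32E* probe set was 1.09-fold to 2.01-fold. For another of *CABIN1* it was 1.02-fold to 2.03-fold, and for another of *ZNF473* 0.980-fold to 1.91-fold. In that fit the interval of the brightest *NAP1L1* probe set was 0.770-fold to 1.13-fold, so its bound of 1.25-fold did not hold there. Over the 35 genes, the root mean square difference was 0.303 between the sh-ACTL6A arrays and 0.306 between the scramble arrays. Between an sh-ACTL6A and a scramble array it ran between 0.22 and 0.396, and both within-group values lay inside that range.

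Of the 9 variant genes 7 were tested, 5 above and 2 below 0, with a median difference of 0.18. That median was 0.083 for sh-ACTL6A replicate 1 and 0.36 for sh-ACTL6A replicate 2 against the scramble mean. None of the 7 passed the limma test (lowest adjusted p = 0.915). The median of 0.18 was the value of *H3-3A*, from a dim probe set. Of the variants' 20 probe sets at or above the threshold, 14 were above and 6 below 0, with a median of 0.061. *H2AX*, the variant that is phosphorylated around DNA breaks, had a log2 signal of 12.60 and 12.87 in sh-ACTL6A, against 12.26 and 12.56 in scramble. Both sh-ACTL6A arrays were above both scramble arrays, the nearer pair by a few hundredths. The difference was 0.33 ± 0.15 (SE, n = 2 per group; 95% interval -0.011 to 0.66; limma adjusted p = 0.915). Another *H2AX* probe set read 8.91 and 9.01 in sh-ACTL6A, against 8.52 and 8.52 in scramble, a difference of 0.44. A dimmer one read 6.42 and 7.15 in sh-ACTL6A, against 6.60 and 7.36 in scramble, a difference of -0.19. The gene's probe sets therefore did not share a sign.

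*H2AJ*, a mammalian H2A variant, had a log2 signal of 11.45 and 11.68 in sh-ACTL6A, against 11.23 and 11.40 in scramble. The groups did not overlap, and the difference was 0.25 ± 0.14 (SE, n = 2 per group; limma adjusted p = 0.918). All 4 *H2AJ* probe sets were above 0, by 0.25 to 0.38, although the 2 brightest are of a kind that the manufacturer marks as able to bind related transcripts. *H1-10*, a replication-independent linker histone, had 9.39 and 10.08 in sh-ACTL6A, against 8.49 and 9.85 in scramble. The groups overlapped, and scramble replicate 1 was far below the other 3 arrays. Its difference of 0.56 ± 0.42 (SE, n = 2 per group; limma adjusted p = 0.935) was -0.12 without scramble replicate 1. That array also had the largest 3' minus 5' signal of *ACTB*, and the part of this in the *H1-10* value was not tested.

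The H2A.Z genes encode nearly identical proteins of the variant found beside active promoters. *H2AZ1* had 14.76 and 14.66 in sh-ACTL6A, against 14.75 and 14.70 in scramble. The arrays overlapped, and the difference of -0.014 ± 0.072 (SE, n = 2 per group) had a 95% interval between 0.881-fold and 1.11-fold. *H2AZ2* had 12.83 and 12.84 in sh-ACTL6A, against 12.82 and 12.68 in scramble. The groups were apart by about a hundredth, with a difference of 0.084 ± 0.10, and the 4 *H2AZ2* probe sets were split, 2 above and 2 below 0. *MACROH2A1*, a variant with a large macro domain, differed by -0.011 ± 0.092. Its paralogue *MACROH2A2* lay below the threshold, at 2.57 and 1.41 in sh-ACTL6A and 2.26 and 3.13 in scramble, where array values scatter too widely to be read. *H3-3A*, a gene of the replication-independent H3.3, had only a dim probe set of its own, with 7.32 and 7.74 in sh-ACTL6A, against 7.44 and 7.26 in scramble. The groups overlapped and the difference was 0.18 ± 0.26, so H3.3 mRNA was measured only in part.

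All 8 genes of histone mRNA production were tested, and 7 were below 0, with a median difference of -0.13. That share is 87.5%, beside 48.1% of all genes. None passed the limma test (lowest adjusted p = 0.916), and the median was -0.13 for sh-ACTL6A replicate 1 and -0.054 for sh-ACTL6A replicate 2. Of their 14 probe sets at or above the threshold, 4 were above and 10 below 0. *SLBP*, which binds the stem-loop, had 12.89 and 12.59 in sh-ACTL6A, against 13.06 and 12.98 in scramble. Both sh-ACTL6A arrays were the lower ones, replicate 2 clearly so. The difference was -0.28 ± 0.13 (SE, n = 2 per group; 95% interval -0.57 to 0.010; limma adjusted p = 0.916), or 0.823-fold. *CASP8AP2* (FLASH), a scaffold of the cleavage complex, had 10.63 and 10.44 in sh-ACTL6A, against 10.81 and 10.71 in scramble. Here too the groups did not overlap, and the difference was -0.23 ± 0.15 (limma adjusted p = 0.927).

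*ERI1*, the exonuclease that trims histone mRNA ends, had 9.35 and 10.38 in sh-ACTL6A, against 10.36 and 10.20 in scramble. A single array, sh-ACTL6A replicate 1, lay below the other 3, and the groups overlapped. The difference was -0.41 ± 0.30 (SE, n = 2 per group; limma adjusted p = 0.933). Another *ERI1* probe set showed the same array lowest, with 8.55 and 9.49 in sh-ACTL6A, against 8.99 and 9.26 in scramble. *ZNF473*, a zinc finger protein of the U7 complex, had 9.65 and 9.28 in sh-ACTL6A, against 9.57 and 9.55 in scramble, a difference of -0.091 ± 0.18. Its other probe set read 8.53 and 8.27 in sh-ACTL6A, against 8.001 and 7.89 in scramble, a difference of 0.45. The pair disagreed in sign, so the direction of *ZNF473* was not settled. *COIL*, the scaffold of Cajal bodies, differed by -0.17 ± 0.16, and its other probe set by 0.11. *LSM10* and *LSM11*, the Lsm proteins particular to the U7 particle, differed by -0.038 ± 0.14 and -0.012 ± 0.16. *NPAT*, the cyclin E substrate that switches on histone genes, was the 1 member above 0, by 0.084 ± 0.13.

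*SLBP* and *ERI1* each passed the threshold when 1 array was left out, and the array differed. Without sh-ACTL6A replicate 1, *SLBP* differed by -0.43 (limma adjusted p = 0.0264), and over its alternatives its adjusted p ran between 0.0264 and 0.9998. Without sh-ACTL6A replicate 2, *ERI1* differed by -0.93 (limma adjusted p = 0.00637), within a range between 0.00637 and 0.9998. In these fits the lone sh-ACTL6A array is assumed to vary like the scramble arrays, and the genes called among all tested numbered 401 and 335, or 3.26% and 2.73%. Without sh-ACTL6A replicate 1, *ERI1* differed by 0.10, and without sh-ACTL6A replicate 2, *SLBP* differed by -0.13. The 10 S phase genes followed for comparison were 4 above and 6 below 0 with a median of -0.039, and limma called 0 of them, also at an unadjusted p under 0.05. Their part in the *SLBP* value was not tested.

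**Figure D2:**
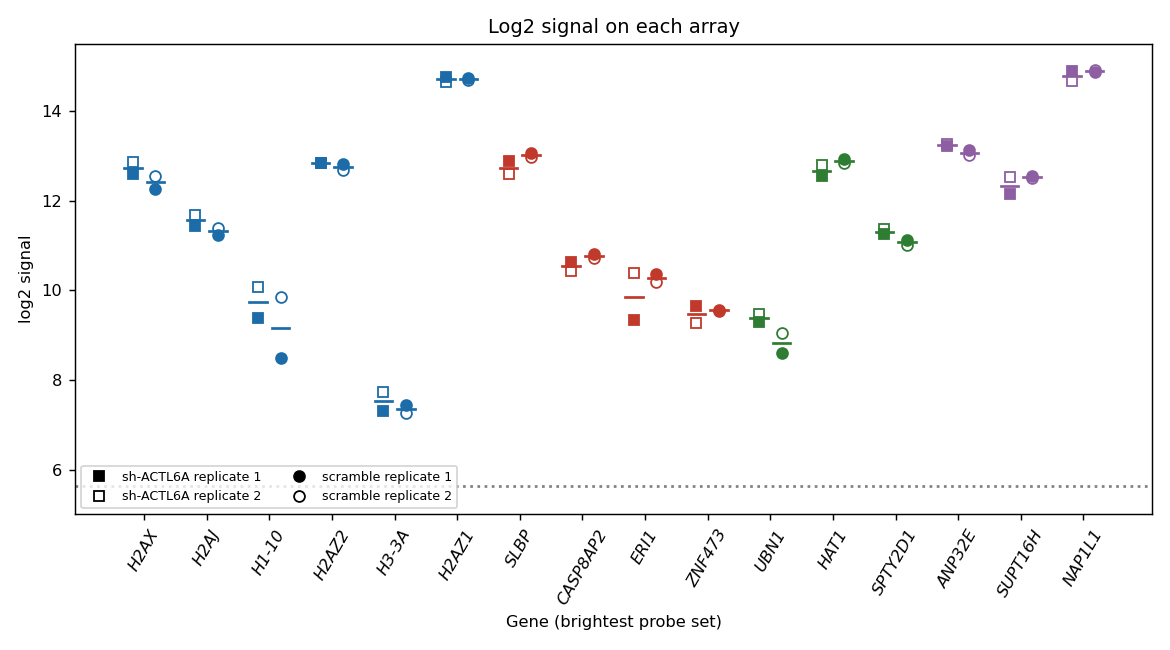
Log2 signal (y axis) on each array for the genes given array by array (x axis), with squares for sh-ACTL6A on the left of each gene and circles for scramble on the right, filled for replicate 1 and open for replicate 2. Short lines are group means and the dotted line the threshold of 5.63, and the low sh-ACTL6A replicate 1 value of *ERI1* (9.35) and the low scramble replicate 1 value of *H1-10* (8.49) stand apart from the other 3 arrays.

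All 15 H3-H4 chaperones and carriers were tested, 9 above and 6 below 0, with a median difference of 0.053. That median was 0.099 for sh-ACTL6A replicate 1 and -0.023 for sh-ACTL6A replicate 2. None passed the adjusted limma test. *UBN1*, a subunit of the HIRA complex that deposits H3.3, had 9.29 and 9.48 in sh-ACTL6A, against 8.59 and 9.05 in scramble. The groups did not overlap, and the difference was 0.56 ± 0.21 (SE, n = 2 per group; 95% interval 0.087 to 1.04; limma adjusted p = 0.851), or 1.48-fold. Another *UBN1* probe set overlapped, with 8.46 and 8.77 in sh-ACTL6A, against 8.19 and 8.74 in scramble, a difference of 0.15. The *UBN1* difference was 0.34 without scramble replicate 1 and 0.36 when its probe sets were averaged. *HIRA* differed by -0.045 ± 0.15, *CABIN1*, of the same complex, by 0.14 ± 0.18, and *UBN2*, a paralogue of *UBN1*, by 0.045 ± 0.21. Another *CABIN1* probe set read 8.42 and 8.20 in sh-ACTL6A, against 7.70 and 7.87 in scramble, a difference of 0.52 with no overlap.

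*HAT1*, the enzyme that acetylates new histone H4, had 12.55 and 12.80 in sh-ACTL6A, against 12.94 and 12.84 in scramble. Both sh-ACTL6A arrays were the lower ones, with a difference of -0.22 ± 0.12 (SE, n = 2 per group; limma adjusted p = 0.918). *SPTY2D1*, a human relative of the yeast chaperone Spt2, had 11.25 and 11.36 in sh-ACTL6A, against 11.13 and 11.02 in scramble. The groups did not overlap, and the difference was 0.24 ± 0.13 (limma adjusted p = 0.918), with 0.17 for its other probe set. *ATRX*, the remodeller that works with *DAXX* to place H3.3 in heterochromatin, read alike on the arrays of a group, at 10.87 and 10.87 in sh-ACTL6A, against 11.04 and 11.05 in scramble. Its difference was -0.17 ± 0.13 (limma adjusted p = 0.935), and its 4 probe sets lay between -0.29 and -0.16. The groups overlapped in all its other probe sets. *DAXX* differed by 0.15 ± 0.17, and its other probe set by -0.085.

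None of the chaperones that serve replication passed the test. *ASF1A* and *ASF1B*, which hand H3-H4 on to the next chaperone, differed by 0.17 ± 0.14 and 0.053 ± 0.17. *CHAF1A* and *CHAF1B*, subunits of the CAF-1 complex behind the replication fork, differed by 0.093 ± 0.15 and -0.041 ± 0.19, and another *CHAF1A* probe set by 0.25 with no overlap of the groups. *NASP*, which keeps the soluble pool of H3-H4, differed by -0.0094 ± 0.093, with a 95% interval between 0.855-fold and 1.15-fold. Another *NASP* probe set differed by 0.25 with no overlap of the groups, and its 95% interval lay between 0.905-fold and 1.57-fold. *IPO4*, the importin of H3-H4, differed by less than a hundredth, and *HJURP*, the chaperone of the centromeric H3 variant, by 0.063 ± 0.12.

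Of the 5 genes of H2A-H2B chaperones and FACT, 3 were above and 2 below 0, with a median of 0.028. None passed the limma test (lowest adjusted p = 0.918). *ANP32E*, which removes H2A.Z from nucleosomes, had 13.22 and 13.28 in sh-ACTL6A, against 13.13 and 13.02 in scramble. The groups did not overlap, and the difference was 0.18 ± 0.097 (SE, n = 2 per group; 95% interval -0.048 to 0.40; limma adjusted p = 0.918). Its 3 probe sets were all above 0, by 0.15 to 0.57. *SUPT16H*, a subunit of the FACT complex that opens nucleosomes for polymerases, had 12.15 and 12.54 in sh-ACTL6A, against 12.55 and 12.51 in scramble. Only sh-ACTL6A replicate 1 was low, and the difference was -0.19 ± 0.14 (limma adjusted p = 0.941). The other *SUPT16H* probe set differed by 0.11, with overlap of the groups, so its probe sets did not share a sign. Its partner *SSRP1* differed by 0.028 ± 0.097.

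*NAP1L1*, a nucleosome assembly protein that carries H2A-H2B, had 14.89 and 14.68 in sh-ACTL6A, against 14.87 and 14.91 in scramble. The groups overlapped, and the difference was -0.10 ± 0.085 (SE, n = 2 per group; limma adjusted p = 0.941). Its 7 probe sets lay between -0.10 and 0.13. *NAP1L4*, its paralogue, differed by 0.16 ± 0.21 (0.65 with all its probe sets averaged, dim ones included). Its 3 probe sets at or above the threshold were all above 0, by 0.16 to 0.67.

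Each of the 93 probe sets was also tested in a limma fit across the 54613 probe sets that are not controls. None of the 93 passed the adjusted test, nor did any other probe set (0%). At an unadjusted p under 0.05 there were 5 of the 93 (5.38%), where 5.01% of all probe sets passed. These belonged to *UBN1* (0.56), *ANP32E* (0.57), *CABIN1* (0.52) and *H2AX* (0.44), and to a dim probe set of *UBN2* (-1.84). Of the 80 probe sets at or above the threshold, 50 (62.5%) were above and 30 below 0, with a median of 0.043, where 52.3% of all probe sets this bright were above 0. In 26 of the 80 (32.5%) the groups did not overlap, against 33.4% of all probe sets this bright. The 13 dimmer probe sets, of 10 genes, spread between -1.84 and 1.52 with a median SE of 0.94, against 0.16 for the brighter ones. Of the 24 genes with at least 2 probe sets at or above the threshold, 12 had the same sign in all of them.

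**Figure D3:**
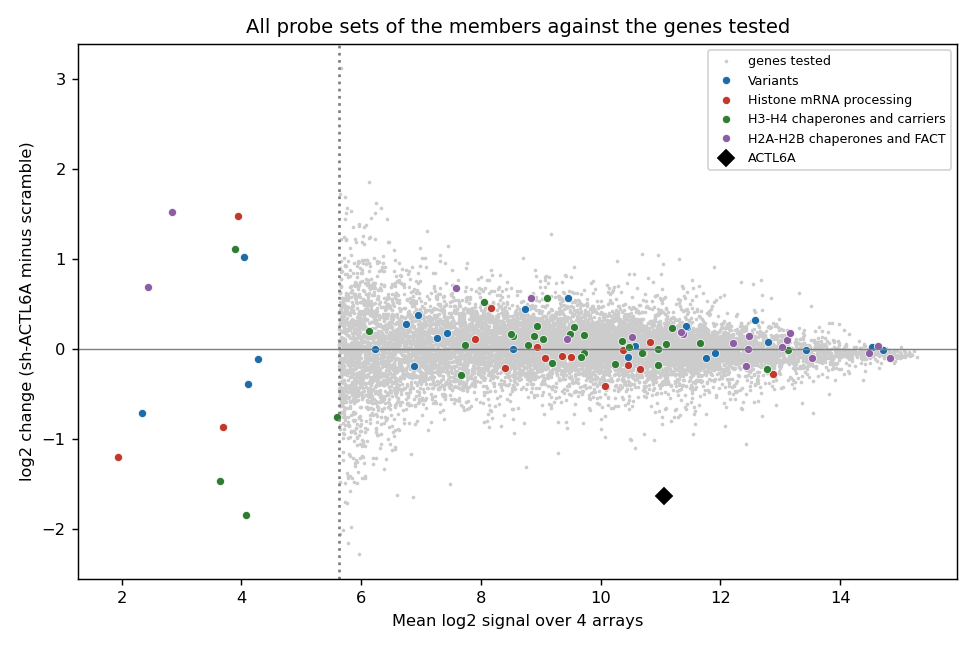
Log2 change (y axis, sh-ACTL6A minus scramble) against mean log2 signal over 4 arrays (x axis) for the 93 probe sets, coloured by role, over the 12286 genes tested in grey. The dotted line is the threshold of 5.63, and the 80 probe sets to its right lay between -0.41 and 0.67, while *ACTL6A* (diamond) lay at -1.63.

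Of the 11 further genes of variants and their exchange, 9 were tested, 6 above and 3 below 0, with a median of 0.062. *CENPA*, the centromeric H3 variant, differed by 0.21 ± 0.15 (limma adjusted p = 0.933). *MIS18A*, which prepares centromeres for it, had 11.80 and 10.12 in sh-ACTL6A, against 11.79 and 11.60 in scramble, so that only sh-ACTL6A replicate 2 was low. Of 19 genes of histone mRNA 3' ends and decay, 8 were above and 11 below 0, with a median of -0.036. The smallest unadjusted p belonged to *SNRPE*, a core Sm protein (-0.17 ± 0.086), and *NCBP2*, a subunit of the cap-binding complex (-0.40 ± 0.28). Only sh-ACTL6A replicate 2 was low for *NCBP2*, and sh-ACTL6A replicate 1 lay 0.080 above the scramble mean. Of 20 further chaperone genes 19 were tested, 8 above and 11 below 0, with a median of -0.033. *PCNA*, the clamp that recruits CAF-1, differed by -0.19 ± 0.095 and *SUPT6H*, an H3-H4 chaperone of transcription, by 0.33 ± 0.17. With limma, 0 of the genes in these 3 lists passed the adjusted test and 0 had an unadjusted p under 0.05. Of 11 G2 and mitosis genes 8 were above and 3 below 0, with a median of 0.12, and *KIF20A*, a mitotic kinesin, differed by 0.57 ± 0.15 (limma adjusted p = 0.630).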

How the data were processed

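Gene expression of 2 sh-ACTL6A and 2 scramble samples of SNU638 was measured on single-colour arrays with biotin-labelled cRNA. The authors deposited log2 signals of 54675 probe sets, made with MAS5 according to the submitters' processing notes. MAS5 summarises each array alone and scales it to a common level. Its version was not stated in any source read. The trimmed mean of the linear signal was 500.0 on every array. Values were used as deposited, so dim probe sets vary widely, and the arrays may still differ in how their signals are spread.

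Symbols came from the platform annotation. Probe sets with several symbols (1801) or no symbol (11721) were not named. A gene (19775 in all) took the values of its brightest probe set by mean log2 signal. Genes at or above the 50th percentile of non-control probe sets (5.63) were tested, 12286 in number. Differences were tested with limma 3.58.1 (R 4.3.3) by lmFit and eBayes, with the prior variance following intensity and 7.65 degrees of freedom, 2-sided, with Benjamini-Hochberg adjustment over all genes tested and a threshold of 0.05. The fit was tested on simulated data. The methods name an unpaired t-test, which was run on the same values. With 2 arrays per group, their number limits the precision.

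The genes, their role groups and the wider lists were chosen with earlier results of these data known. Arrays are given one by one for the 3 genes with the smallest unadjusted p in each role group, for genes whose probe sets at or above the threshold differ in sign with a gap over 0.3, and for the H2A.Z and H3.3 genes. *ATRX*, *MACROH2A2* and *MIS18A* were given array by array after their values were seen. Another *CABIN1* probe set was also given array by array, outside these rules. Promoters came from RefSeq (GRCh38.p14), using the first start listed for a gene. The alternatives tried were median centring, quantile normalisation, a 75th percentile filter or none, the mean of a gene's probe sets, an offset on the linear signal, no intensity trend, the replicate number as a block, the t-test, every probe set tested, and leaving out each array.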

Additional observations from a re-analysis of the deposited data

How the results depend on the processing

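With all 4 arrays, 0 of the 35 genes were called under any alternative, and 330 of 349 differences kept their sign and side of the threshold. Leaving out 1 array gave 0 to 1 of the 35 called and 0 to 401 genes in all. The single genes called were *SLBP* without sh-ACTL6A replicate 1 and *ERI1* without sh-ACTL6A replicate 2. Of 140 such differences 26 changed sign, and 14 of 35 genes kept their sign in every alternative run. The causes were not tested.

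The fall of *ACTL6A* was -1.63 with an adjusted p of 0.281 with every probe set tested, 0.0797 with no filter, 0.556 with no intensity trend and 0.844 with the methods' t-test, and -1.64 (0.052) with quantile normalisation. It was -1.71 to -1.55 with 1 array left out. In those 5 settings 0 genes were called. With the replicate number as a block 2 genes were called, with *ACTL6A* at -1.63. The deviations of same-numbered arrays had a correlation of 0.056 across genes. Only the block fit used the number, and the labels do not say what a number marks. The 3' minus 5' signal did go with the number, at 1.21 (sh-ACTL6A) and 1.63 (scramble) for *ACTB* in replicates 1 and 0.78 in both replicates 2. At an unadjusted p under 0.05 in limma there were 4 of the 35 genes with the block (*H1-10*, *H2AX*, *SLBP* and *UBN1*). All genes tested gave 889 of 12286 there. With quantile normalisation there were also 4 (*ANP32E*, *H2AX*, *SLBP* and *UBN1*), beside 668 of 12287 genes tested.

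Averaging a gene's probe sets turned the sign of *NPAT* (-0.29), *NASP* (0.096), *NAP1L1* (0.012), *MACROH2A1* (0.10), *LSM11* (0.32), *UBN2* (-0.58), *H2AZ2* (-0.015), *H2AZ1* (0.0051), *HIRA* (0.53), *ZNF473* (0.18) and *CHAF1A* (-0.075). With the sign kept, it moved *NAP1L4* to 0.65, *CASP8AP2* to -0.71, *CABIN1* to 0.33, *ANP32E* to 0.30, *UBN1* to 0.36, *H2AX* to 0.12, *ERI1* to -0.26, *ASF1A* to 0.094, *SUPT16H* to -0.039, *DAXX* to 0.034, *SSRP1* to 0.017 and *COIL* to -0.029. The averages of *NPAT*, *MACROH2A1*, *LSM11*, *UBN2*, *HIRA*, *CHAF1A*, *NAP1L4*, *CASP8AP2* and *H2AX* took in probe sets below the threshold, whose values scatter widely. A *CASP8AP2* probe set with a mean log2 signal of 1.94 differed by -1.20, and a *NAP1L4* probe set at 2.84 by 1.52. Median centring turned *NASP* (0.023), *LSM11* (0.020), *MACROH2A1* (0.020), *H2AZ1* (0.018) and *IPO4* (0.029), and quantile normalisation *MACROH2A1* (0.023), *H2AZ1* (0.035) and *NASP* (0.015). The H2A-H2B chaperone median was 0.060 with median centring and 0.052 with quantile normalisation, and the median of all 35 was 0.060 with median centring. The median over all genes tested was 0.041 with median centring and 0.0029 with quantile normalisation, against 0.0090 with the values as deposited.

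With 1 array left out, differences ran from -0.12 to 0.23 (*ASF1B*), -0.26 to 0.18 (*CHAF1B*), -0.93 to 0.10 (*ERI1*), -0.12 to 1.25 (*H1-10*), -0.063 to 0.034 (*H2AZ1*), -0.035 to 0.39 (*H3-3A*), -0.14 to 0.053 (*HIRA*), -0.14 to 0.13 (*IPO4*), -0.12 to 0.039 (*LSM10*), -0.12 to 0.10 (*LSM11*), -0.072 to 0.049 (*MACROH2A1*), -0.21 to 0.0027 (*NAP1L1*), -0.15 to 0.47 (*NAP1L4*), -0.035 to 0.016 (*NASP*), -0.010 to 0.067 (*SSRP1*), -0.38 to 0.0061 (*SUPT16H*), -0.16 to 0.25 (*UBN2*) and -0.28 to 0.10 (*ZNF473*). With the sign kept they ran from 0.34 to 0.79 (*UBN1*), 0.18 to 0.48 (*H2AX*), 0.13 to 0.36 (*H2AJ*), -0.43 to -0.13 (*SLBP*), -0.32 to -0.13 (*CASP8AP2*) and -0.34 to -0.094 (*HAT1*). Medians ran from 0.083 to 0.36 for variants, -0.18 to -0.054 for histone mRNA genes, -0.023 to 0.099 for H3-H4 chaperones, -0.12 to 0.067 for H2A-H2B chaperones and -0.0063 to 0.062 for all 35.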
